A study of Mus musculus with 135 samples.

Results

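The hippocampus of sickle mice was compared with that of normal-genotype mice in animals that had been neither stressed nor treated. The members were the hippocampus libraries labelled as stress exposure Ctrl and treatment No, which gave 18 libraries of 18 mice, 7 labelled SS and 11 labelled AA, among 135 libraries in all, 134 of them with a known group. All were male Townes mice, in which human globin genes stand in for the adult mouse globin genes. SS mice carry the human sickle beta globin and AA mice the human normal beta globin, so both groups share the humanized locus and differ in the sickle allele. These controls were not put through repeat social defeat (RSD) and did not receive minocycline. The study's methods give 6 months as the age of the mice put under RSD and state that control mice were matched in age and sex. Whole hippocampus was taken, so that red cells, vessels and any attached choroid plexus or meninges entered the same RNA; more cells of a type and more RNA per cell cannot be told apart in such bulk samples. Whether the brains used for RNA were perfused is not given in the sources used here.

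In sickle cell disease, deoxygenated sickle hemoglobin polymerises inside the red cell, red cells are lost early, and the marrow releases many young red cells called reticulocytes. Reticulocytes have no nucleus but still hold mRNA for heme synthesis, membrane proteins and globins, and they lose it as they mature. Endothelial cells line the brain's vessels, pericytes wrap its capillaries, and both respond to flow, hypoxia and inflammation. The comparison asks which transcripts differ in the hippocampus at baseline, before any stress.

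Reads on genes ranged from 36523234 to 68729401 in the SS libraries (median 57799225) and from 19645225 to 62882249 in the AA libraries (median 34353343). Levels are given as CPM, the reads on a gene relative to all reads on genes in the library, after scaling for library composition. Of 23215 genes tested with edgeR's quasi-likelihood test, 37 passed an adjusted p of 0.05, which is 0.159% of the genes. Of these, 36 were higher in SS mice (0.155%) and 1 was lower. An unadjusted p under 0.05 was found for 862 genes, fewer than the 1161 that chance alone would give. Among the higher genes were red cell genes with log2 fold changes of up to 3.83, genes named for interferon, and genes of endothelial cells, pericytes and the hypoxia response with mostly smaller folds. The largest folds, of 5.32 and 5.31 on the log2 scale, belonged to the immunoglobulin segments Ighv1-82 and Igkv6-32. Of the 36 genes, 21 belong to at least 1 of the gene lists described below. The other 15 are described beside the group they are known for, chosen after their values were seen, or on their own.

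Alas2, the first enzyme of heme synthesis in red cell precursors, served as a check of the labels. In the SS hippocampus it was at 44.05 CPM in the lowest library, 85.2 at the median and 131 in the highest. Of the 11 AA libraries, 10 were between 1.83 and 11.2 CPM, with a median of 2.99, and the library labelled AA 5844 was at 56.1 CPM. This library lay inside the SS range and apart from every other AA library. The cortex of the same mouse gave the same picture, at 99.4 CPM in 5844 against 52.1 to 120 CPM in SS and 2.77 to 8.11 CPM in the other 10 AA mice. Slc4a1, the anion exchanger band 3 of the red cell membrane, was at 6.46 CPM in the hippocampus of 5844, where SS libraries held 3.003 to 16.7 CPM and the other AA libraries 0.124 to 1.09 CPM. Hba-x, the embryonic zeta-type alpha globin, was at 2.44 CPM in 5844, just under the lowest SS library at 2.46 CPM and above the other AA libraries, which ended at 0.824 CPM. The markers of red cell precursors thus went against the label of 1 AA library in both tissues.

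**Figure D1:**
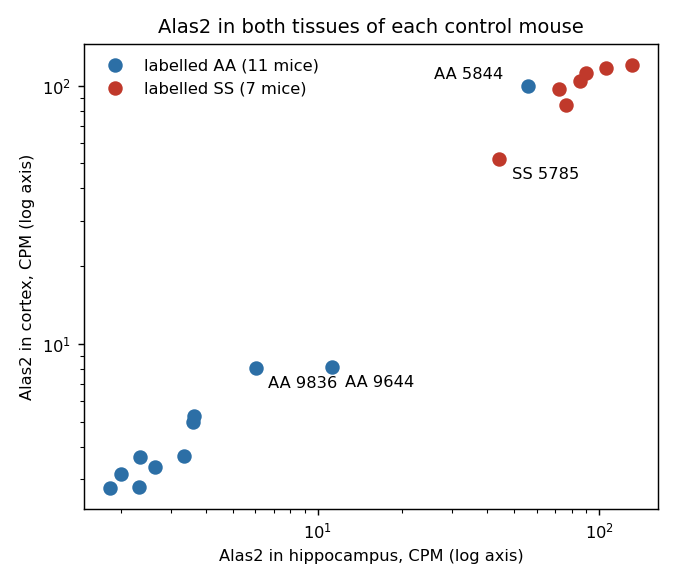
Alas2 in the hippocampus (horizontal, CPM, log axis) and the cortex (vertical, CPM, log axis) of the 18 control mice, 1 point per mouse, coloured by the labelled genotype. The mouse labelled AA 5844, at 56.1 CPM in the hippocampus and 99.4 CPM in the cortex, sits among the SS mice; the other 10 AA mice stay at or below 11.2 CPM in both tissues.

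The library labelled AA 5844 was kept in the comparison under its label. Because it was its Alas2 level that drew attention to it, red cell genes called without it are not independent evidence. Without it, 51 of 23418 genes were higher in SS mice (0.218%) and 1 was lower; all 37 calls were shared and 15 were added. Of the 36 higher genes, 24 had 5844 above every other AA library and 25 had it within the SS range. These 2 counts were not made over all genes tested, so no excess can be read from them. All 7 SS libraries were above all 11 AA libraries for 7 of the 36 genes and for 12 of all 23215 genes (0.0517%). They were above the 10 AA libraries other than 5844 for 27 of the 36 genes and for 37 of all genes (0.159%). The 36 genes were chosen for this difference, so these counts are a description.

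The only gene lower in SS mice, Hbb-bs, an adult mouse beta globin, was high in a single AA library. The library labelled AA 9631 held 33.8 CPM of Hbb-bs, and the other 17 libraries held at most 0.146 CPM. The same library held 4.26 CPM of Hbb-bt, 19.2 CPM of Hba-a1 and 8.97 CPM of Hba-a2, the other adult mouse globins, where the other 17 reached 0.293, 1.33 and 1.29 CPM. The cortex of mouse 9631 held 39.3 CPM of Hbb-bs, and the other 17 cortex libraries at most 0.146 CPM. The fold of Hbb-bs (log2 fold change -5.88 ± 1.27 (SE), adjusted p = 0.0145 with edgeR) therefore rests on 1 mouse. Adult mouse globins at these levels went against the humanized design for this 1 AA mouse in both tissues, and the reason was not tested. The human globins of the humanized locus were not analysed here.

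The stretches of 250 bases before the annotated start of the 3 red cell markers are shown first, because these genes served to check the labels. They were read from GRCm39 with the canonical transcripts of GENCODE vM39. Capitals mark AGATAA or TGATAA on either strand, the core of sites for GATA factors, the regulators of the red cell lineage.
Alas2, chrX:149330121-149330370, plus strand: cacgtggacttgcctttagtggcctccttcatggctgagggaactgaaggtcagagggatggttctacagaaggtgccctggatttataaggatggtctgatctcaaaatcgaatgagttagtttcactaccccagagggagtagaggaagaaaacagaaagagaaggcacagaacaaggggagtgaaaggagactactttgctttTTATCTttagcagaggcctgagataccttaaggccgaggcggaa
Slc4a1, chr11:102256107-102256356, minus strand: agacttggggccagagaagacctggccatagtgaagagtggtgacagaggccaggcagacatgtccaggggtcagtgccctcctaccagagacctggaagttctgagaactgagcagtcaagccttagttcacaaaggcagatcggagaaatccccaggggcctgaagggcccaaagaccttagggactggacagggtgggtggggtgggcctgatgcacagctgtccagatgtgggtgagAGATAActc
Hba-x, chr11:32226150-32226399, plus strand: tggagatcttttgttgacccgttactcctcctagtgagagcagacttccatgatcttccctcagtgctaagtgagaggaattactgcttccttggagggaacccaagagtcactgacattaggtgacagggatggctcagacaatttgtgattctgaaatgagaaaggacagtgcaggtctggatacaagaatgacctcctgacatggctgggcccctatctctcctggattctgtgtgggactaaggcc
Alas2 and Slc4a1 each held 1 match, beginning 44 and 9 bases before the start, and these letters are not in the window of Hba-x. A match was found in 14.5% of the 23026 windows of this length before the start of tested genes and in 9 of the 36 windows of the genes called higher, among them Alas2, Slc4a1, Epb42, Kel, Trim10, Kcnj8 and Vwf. A match is a description of letters and not a binding site.

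Of the heme synthesis genes, 1 of 15 rose. Alas2 was higher in SS mice by a log2 fold change of 3.33 ± 0.55 (SE, adjusted p = 0.000202, edgeR), and by 4.47 ± 0.49 without the library labelled AA 5844. In the hippocampus 6 of 7 SS libraries were above every AA library. Alas1, the enzyme of the same step in other cells, was at 66.03 ± 5.67 CPM (SD, n = 7) in SS and 63.97 ± 5.14 CPM (SD, n = 11) in AA mice. Its log2 fold change was 0.04. The later enzymes, which all cells use, did not pass the test, with log2 fold changes of 0.16 for Fech, the last step, and 0.33 for Ppox.

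Of 18 tested genes of the red cell membrane, 4 rose and none fell. Slc4a1, Epb42 and Kel were among the calls. Slc4a1 differed by 3.44 ± 0.59 on the log2 scale (SE, adjusted p = 0.000431, edgeR). Epb42, protein 4.2, which ties band 3 to the membrane skeleton, was at 0.350 to 2.21 CPM in SS libraries (median 0.961) and at 0 to 0.209 CPM in the AA libraries other than 5844, which held 0.739 CPM. Epb42 therefore divided the libraries as Alas2 did, with a log2 fold change of 3.36 ± 0.67 (adjusted p = 0.00487). Kel, the Kell blood group protein, was at 0.131 to 0.623 CPM in SS and 0 to 0.172 CPM in AA libraries, and it remained called in 8 of the 18 comparisons that left out 1 library. Without the library of SS mouse 5349 its adjusted p was 0.270, against 0.0335 with all libraries. Rhag, the Rh-associated glycoprotein, passed only without 5844, at 3.64 on the log2 scale (adjusted p = 0.00709). Skeleton members that neurons also use did not pass: Ank1, Sptb and Add2 had log2 fold changes between -0.09 and -0.07, Dmtn 0.03 and Epb41 0.60 (adjusted p = 0.256).

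Of 27 tested erythroid regulators and reticulocyte genes, 5 rose: Trim10, Fam46c, Ube2l6, Isg20 and Rsad2. Over all genes tested, 0.155% rose. Rsad2 is counted again in the interferon response list below. The lists were drawn with earlier results of these data known, so this count is a description. Trim10, a RING-finger protein needed for terminal red cell differentiation, was at 0.685 to 4.48 CPM in SS (median 1.65), at 0 to 0.188 CPM in 10 AA libraries and at 1.03 CPM in 5844. The difference was 3.65 ± 0.56 on the log2 scale (SE, adjusted p = 6.12e-05, edgeR). Fam46c, now also named Tent5c, a poly(A) polymerase, had a log2 fold change of 1.80 ± 0.25 (adjusted p = 1.07e-05). Its levels were 6.36 to 17.6 CPM in SS and 1.75 to 5.10 CPM in 10 AA libraries, with 7.23 CPM in 5844. Ube2l6, a conjugating enzyme for ISG15, was at 9.52 to 21.9 CPM in SS and 2.60 to 7.03 CPM in 10 AA libraries, with 11.6 CPM in 5844. The transcription factors Klf1, Tal1 and Nfe2 had log2 fold changes of 0.44, 0.47 and 2.10 and did not pass the test. The adjusted p was 0.14 for Tal1 and 0.33 for Nfe2, whose mean in SS mice was only 0.243 CPM. Without 5844 the fold of Nfe2 was 2.39 (adjusted p = 0.139). With the series of mouse numbers also a term in the model, Tal1 and Nfe2 were called. The regulators Zfpm1, Lmo2 and Bcl11a were at -0.16, 0.13 and -0.00, and Gata1 was too low to be tested.

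Hba-x differed by 3.83 ± 0.57 on the log2 scale (SE, adjusted p = 4.57e-05, edgeR), and its median was 4.69 CPM in SS libraries and 0.174 CPM in AA libraries. It was the only gene that rose among 9 tested globin genes, and no globin chaperone was among the genes tested. Hbq1a, the theta globin, was called only without 5844 (log2 fold change 1.20, adjusted p = 0.0442). All 7 SS libraries were above all 11 AA libraries for Hba-x.

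Outside the lists, Apol11b, Tspo2 and E2f2 behaved like the red cell genes. Tspo2, a translocator-type protein of red cell precursors, was at 0.656 to 2.95 CPM in SS and 0.0359 to 0.546 CPM in AA libraries, with 5844 at the top of the AA range. Its groups did not overlap, and its log2 fold change was 3.10 ± 0.47 (adjusted p = 4.58e-05). Apol11b, an apolipoprotein L family member, was at 1.75 to 12.8 CPM in SS, at 0.0215 to 0.879 CPM in 10 AA libraries and at 4.18 CPM in 5844. E2f2, a cell cycle transcription factor with a known part in red cell maturation, rose by 0.94 ± 0.16 on the log2 scale (adjusted p = 0.000202). Bst1, a surface ADP-ribosyl cyclase of blood and stromal cells, rose by 1.83 ± 0.34 (adjusted p = 0.00214), and its SS libraries, from 0.421 CPM, were all above the AA libraries, up to 0.366 CPM.

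**Figure D2:**
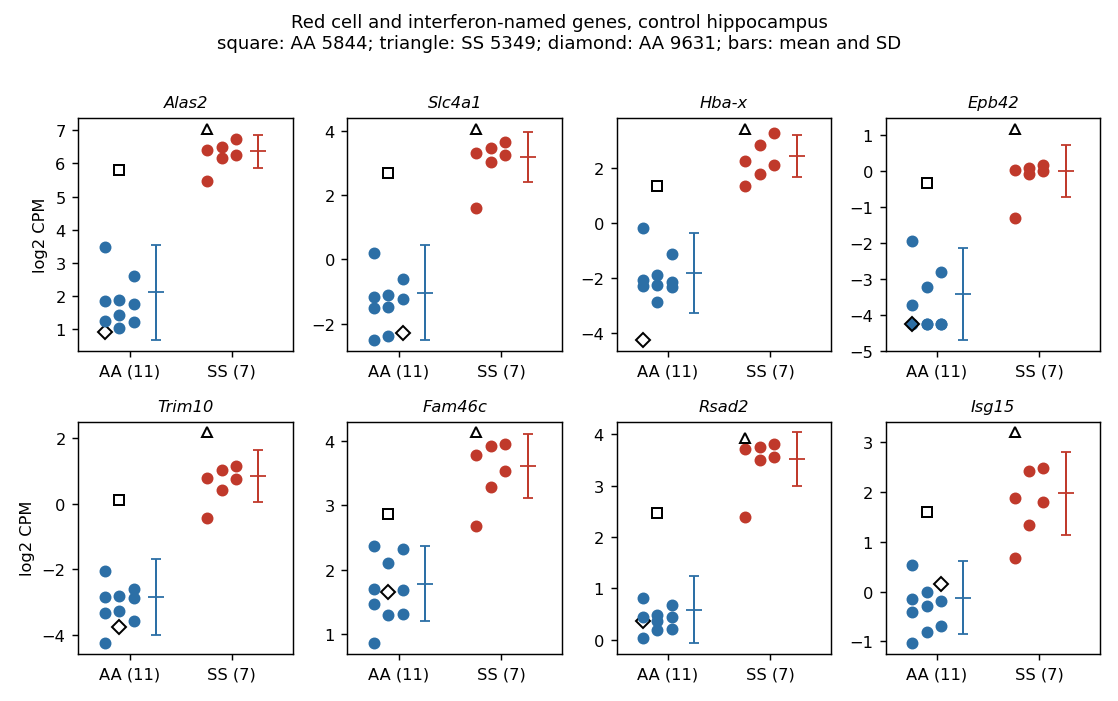
Log2 CPM of 8 genes in each control hippocampus library, AA (11, blue) and SS (7, red), with mean and SD beside each group; the square is AA 5844, the triangle SS 5349 and the diamond AA 9631. For these red cell and interferon-named genes the square lies with or just under the SS libraries, and the remaining AA libraries lie below every SS library.

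Rsad2, or viperin, an antiviral protein induced by interferon that reticulocytes also hold, had the lowest p of all genes. It was at 5.19 CPM in the lowest SS library, 13.1 at the median and 15.2 in the highest, and at 0.972 to 1.69 CPM in 10 AA libraries, with 5.46 CPM in 5844. The log2 fold change was 2.84 ± 0.31 (SE, adjusted p = 1.22e-08, edgeR). Isg15, a ubiquitin-like protein, was at 1.55 to 9.18 CPM in SS and 0.435 to 1.40 CPM in 10 AA libraries, with 2.99 CPM in 5844. It differed by 2.13 ± 0.42 (adjusted p = 0.00487) and missed the threshold without SS mouse 5349 (adjusted p = 0.0568). Isg20, an exonuclease that reticulocytes hold, differed by 2.38 ± 0.39 (adjusted p = 0.000202). Sp100, a nuclear body protein, was at 3.72 to 5.98 CPM in SS and 2.01 to 3.94 CPM in AA mice (log2 fold change 0.58 ± 0.13, adjusted p = 0.0203). It remained called in 14 of the 18 comparisons with 1 library left out.

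Of 22 tested genes of the interferon response, Rsad2 and Isg15 were the only calls. This count depends on how the lists were drawn. Isg20 and Ube2l6 were counted in the list of erythroid regulators and reticulocyte genes, Rsad2 in both lists, and Sp100 in none. Of the 22, 20 had a positive log2 fold change, with a median of 0.39, where 12265 of all 23215 genes tested were positive and their median was 0.01. Ifit1, Ifit3, Irf7, Oasl2 and Usp18, which interferon usually raises together, had log2 fold changes of 0.49, 0.32, 0.45, 0.53 and 0.66 with adjusted p of 0.55 or above. Ifit2 was at -0.04. The list's level in each library, as the median over its genes of the difference from the AA mean, ran from 0.13 to 1.04 in SS and from -0.26 to 0.44 in AA libraries. Only 2 SS libraries were above every AA library, and the highest value belonged to SS mouse 5349. Isg15 overlaps exons of the opposite strand over 31.1% of its exonic length and Ube2l6 over 23.7%. The strand setting of the counts is not given in the sources used here, so that reads of those overlaps cannot be assigned.

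The windows before Rsad2 and Isg15 are shown because these were the calls in the interferon response list. Capitals mark GAAANNGAAA on either strand, the core of the interferon-stimulated response element.
Rsad2, chr12:26506452-26506701, minus strand: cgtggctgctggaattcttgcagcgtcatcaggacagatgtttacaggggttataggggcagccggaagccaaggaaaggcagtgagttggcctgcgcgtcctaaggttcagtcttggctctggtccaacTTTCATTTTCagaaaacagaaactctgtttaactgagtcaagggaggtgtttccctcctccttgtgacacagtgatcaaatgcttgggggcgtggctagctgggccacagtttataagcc
Isg15, chr4:156285304-156285553, minus strand: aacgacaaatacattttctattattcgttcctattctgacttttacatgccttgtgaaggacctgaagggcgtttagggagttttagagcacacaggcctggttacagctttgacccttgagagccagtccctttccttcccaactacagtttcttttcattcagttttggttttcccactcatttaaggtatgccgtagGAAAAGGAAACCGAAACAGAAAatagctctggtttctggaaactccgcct
Rsad2 held 1 match, beginning 120 bases before the start, and Isg15 held 3 overlapping matches, beginning between 50 and 38 bases before it. The motif was in 3.21% of the 23026 windows and in 4 of the 36 windows of the genes called higher, which were Rsad2, Isg15, Apol11b and Epb42. The letters are not in the window of Isg20, which was also called.

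Among the genes of vessel walls that passed the test, Vwf had the largest fold change. Vwf encodes von Willebrand factor, which endothelial cells store and which binds platelets. It was at 59.9 CPM in the lowest SS library, 92.9 at the median and 153 in the highest. In 10 AA libraries it was at 22.7 to 37.5 CPM, and in 5844 at 62.8 CPM, so that SS and AA separated apart from 5844. The log2 fold change was 1.54 ± 0.24 (SE, adjusted p = 0.000101, edgeR) and 1.67 ± 0.24 without 5844.

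The list of endothelial activation and angiogenesis held 24 tested genes, of which 4 rose and none fell: Vwf, Eng, Kdr and Dll4. Of the 24, 21 had positive log2 fold changes, and their median was 0.38, against 0.01 over all genes. Eng, endoglin, a co-receptor for TGF-beta family ligands on endothelium, was at 29.98 to 48.5 CPM in SS (median 34.3) and 18.7 to 27.2 CPM in 10 AA libraries, with 32.2 CPM in 5844. Its log2 fold change was 0.61 ± 0.12 (adjusted p = 0.00237). Kdr, the main VEGF receptor of endothelium, was at 20.6 to 40.01 CPM in SS and 12.1 to 20.2 CPM in 10 AA libraries, with 30.2 CPM in 5844. It differed by 0.64 ± 0.15 (adjusted p = 0.0322) and by 0.75 without 5844 (adjusted p = 0.000951), and missed the threshold without SS mouse 5349 (adjusted p = 0.438). Dll4, a Notch ligand of sprouting vessels, was at 3.50 to 5.04 CPM in SS and 2.01 to 3.32 CPM in AA mice, with no overlap of the groups (log2 fold change 0.62 ± 0.14, adjusted p = 0.0394). Kdr and Dll4 each remained called in 8 of the 18 comparisons with 1 library left out. Flt1, the other VEGF receptor, missed the threshold with all libraries, at 0.47 (adjusted p = 0.0653), and was called at 0.51 without 5844 (adjusted p = 0.0224). Vcam1 and Icam1, adhesion molecules of inflamed endothelium, had log2 fold changes of 0.09 and 0.51 and did not pass, and Angpt2 and Selp had 0.97 and 2.23 and did not pass either (adjusted p = 0.22 and 0.52).

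Acvrl1, the receptor partner of endoglin, was at 16.5 to 28.1 CPM in SS and 11.2 to 16.8 CPM in AA mice (log2 fold change 0.52 ± 0.11, adjusted p = 0.00804), and 5844 was the highest AA library. Ephb4, the ephrin receptor of veins, was at 7.43 to 13.8 CPM in SS and 5.47 to 7.21 CPM in AA mice, without overlap (0.56 ± 0.12, adjusted p = 0.00920). Adgrl4, an adhesion receptor of endothelium, had log2 fold change 0.55 ± 0.11 (adjusted p = 0.0103), Nostrin, which binds endothelial nitric oxide synthase, 0.77 ± 0.15 (adjusted p = 0.00552) and Tfpi, the inhibitor of the tissue factor pathway, 0.54 ± 0.12 (adjusted p = 0.0285). Acer2, an alkaline ceramidase, rose from 15.7 CPM at the AA median to 30.03 CPM at the SS median (1.02 ± 0.22, adjusted p = 0.0133). Vil1, villin, an actin-bundling protein of epithelia, was at 0.637 to 2.49 CPM in SS and 0.435 to 1.03 CPM in AA mice (1.08 ± 0.22, adjusted p = 0.00715). Exons of the opposite strand overlap 48.8% of the exonic length of Nostrin and 26.1% of that of Vil1. Without SS mouse 5349 the adjusted p was 0.144 for Acvrl1, 0.214 for Ephb4, 0.0780 for Tfpi, 0.0971 for Acer2, 0.149 for Vil1, 0.160 for Sp100 and 0.195 for Dll4.

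Cxcl12, a chemokine made by vessel and stromal cells, was among the firmest of these differences. It was at 117 to 168 CPM in SS (median 125) and 56.7 to 92.1 CPM in 10 AA libraries, and 5844, also at 125 CPM, lay within the SS range. The log2 fold change was 0.73 ± 0.11 (adjusted p = 4.57e-05), and 0.82 ± 0.10 without 5844.

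Of 22 tested genes of the blood-brain barrier, 1 rose. Esam, an adhesion molecule of endothelial junctions, was at 18 to 23.4 CPM in SS and 11.6 to 17.03 CPM in AA mice, without overlap, and 5844 at 15.9 CPM lay within the AA range. It differed by 0.49 ± 0.10 (SE, adjusted p = 0.00586, edgeR). The tight junction genes Cldn5, Ocln and Tjp1 had log2 fold changes of 0.24, 0.05 and 0.02, and the fatty acid transporter Mfsd2a -0.08, none past the test. Over the list, 19 of 22 log2 fold changes were positive, with a median of 0.24. Of 17 vascular transcription factors none passed, 16 were positive and the median was 0.30, or 0.19 without SS mouse 5349; Foxc1 had the lowest p, with log2 fold change 0.60 (adjusted p = 0.101).

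Of 15 tested genes of pericytes and smooth muscle, Kcnj8 and Vtn rose. Kcnj8, the potassium channel pore of brain pericytes, was at 4.60 to 6.77 CPM in SS (median 5.59) and 1.60 to 4.25 CPM in AA mice, without overlap. The log2 fold change was 0.82 ± 0.13 (adjusted p = 0.000180). Mouse 5844, at 3.73 CPM, lay with the AA mice. Vtn, vitronectin, which brain pericytes make, was at 63.3 to 154 CPM in SS and 52.7 to 76.0 CPM in AA mice, with 5 of 7 SS libraries above all AA libraries (0.65 ± 0.13, adjusted p = 0.00552). Without SS mouse 5349, whose library held the highest value, the adjusted p was 0.138. All 15 log2 fold changes were positive, with a median of 0.45, and 0.33 without 5349. The list's level was 1.11 in SS mouse 5349, 0.16 at the lowest in SS, and between -0.36 and 0.19 in AA mice, and 6 SS libraries were above every AA library.

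**Figure D3:**
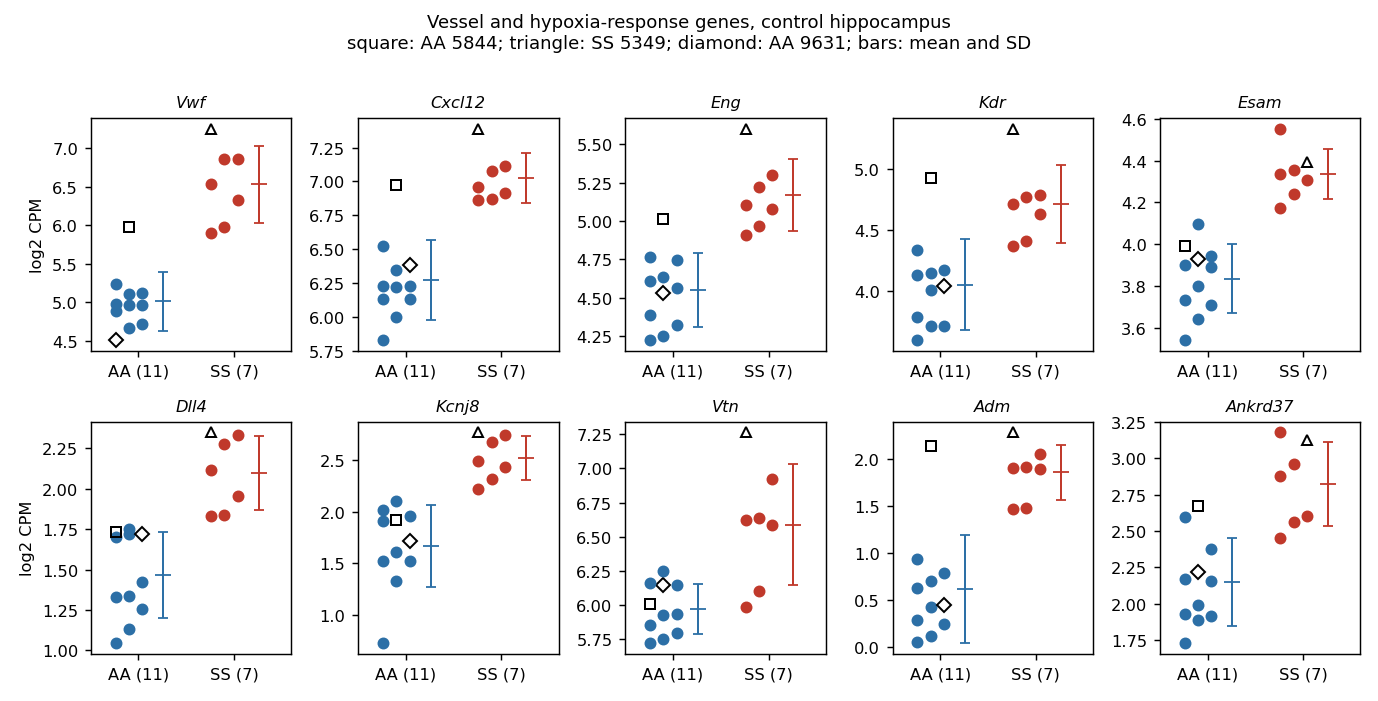
Log2 CPM of 10 genes of vessels and the hypoxia response in each control hippocampus library, AA (11, blue) and SS (7, red), with mean and SD beside each group; the square is AA 5844, the triangle SS 5349 and the diamond AA 9631. For Vwf, Cxcl12, Eng, Kdr and Adm the square lies in the range of the SS libraries, and for Esam, Dll4 and Kcnj8 it lies below every SS library.

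SS mouse 5349 stood apart from the other SS libraries over several lists at once, and its values are given here for that reason. It had the highest level of all 18 libraries in 15 of 31 lists, among them those of the red cell membrane (0.61), pericytes and smooth muscle (1.11), endothelial activation (0.80), interferon response (1.04), MHC and lymphoid genes (1.40), neutrophils (2.80), meningeal fibroblasts (1.54), platelets (1.25), reactive microglia (0.91), vascular transcription factors (0.78), complement (0.74), the blood-brain barrier (0.56) and astrocytes (0.51). Without it, 25 genes were called, all shared with the 37. Without it and AA 5844 together, 33 genes were called, 32 of them higher, and 30 were shared with the 37. Alas2, Slc4a1, Hba-x, Rsad2, Vwf, Cxcl12, Kcnj8, Eng, Esam, Adm and Ankrd37 were among the genes called under both settings. The part of attached tissue or blood in the difference was not tested.

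**Figure D4:**
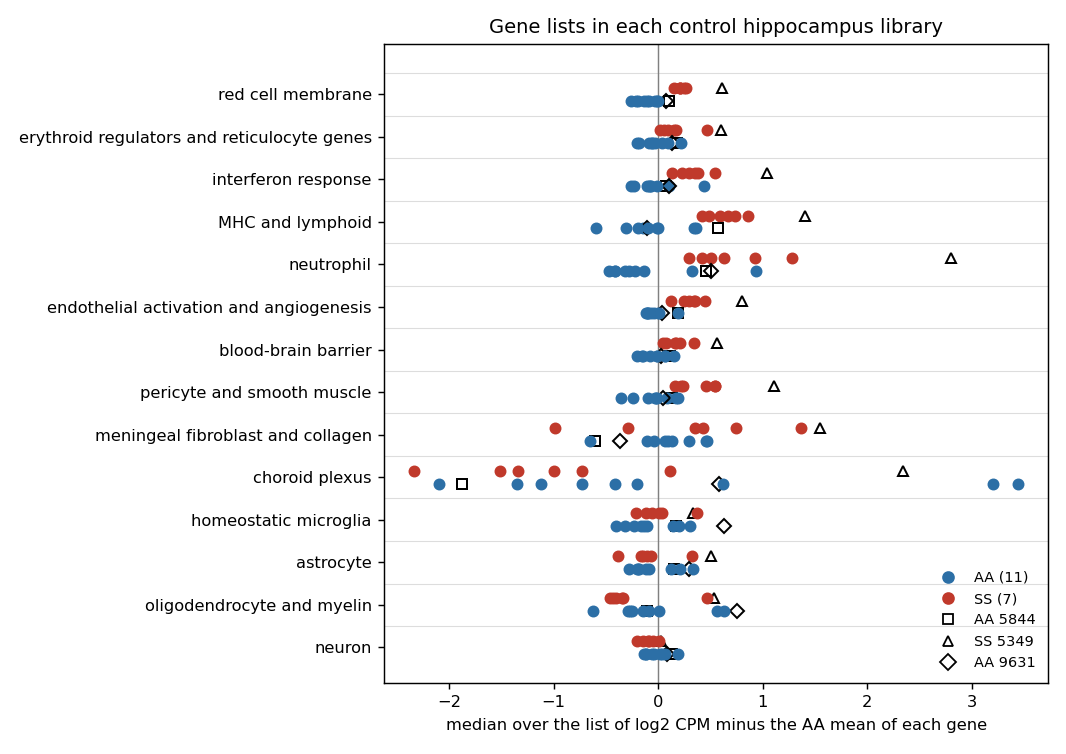
Level of 14 gene lists in each control hippocampus library, as the median over the list of log2 CPM minus the AA mean of each gene, with AA libraries in blue and SS libraries in red; the square is AA 5844, the triangle SS 5349 and the diamond AA 9631. SS libraries lie to the right of nearly all AA libraries for the lists of red cell membrane, pericytes, endothelial activation, and MHC and lymphoid genes. In these SS 5349 is farthest right. The lists of neurons, myelin, astrocytes and microglia overlap.

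Of 20 tested genes of the hypoxia response, Adm and Ankrd37 rose. Adm, adrenomedullin, a vessel-dilating peptide, was at 2.73 to 4.85 CPM in SS (median 3.69) and 0.988 to 1.86 CPM in 10 AA libraries, and 5844 was at 4.37 CPM. All 7 SS libraries were above those 10. The log2 fold change was 1.16 ± 0.22 (SE, adjusted p = 0.00237, edgeR), and 1.42 ± 0.19 without 5844. Ankrd37, an ankyrin repeat protein induced by hypoxia-inducible factor, was at 5.41 to 9.02 CPM in SS and 3.26 to 5.98 CPM in 10 AA libraries, with 6.33 CPM in 5844 (0.67 ± 0.13, adjusted p = 0.00487). Exons of other genes on the opposite strand cover 81.4% of its exonic length, and 31.9% of that of Adm. Vegfa and Slc2a1, also targets of the factor, had log2 fold changes of 0.63 and 0.35 and did not pass (adjusted p = 0.29 and 0.41). The glycolytic targets Ldha and Pgk1 were at 0.03 and -0.03 and Bnip3 at -0.00, and the list's median was 0.02, close to the 0.01 of all genes.

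The windows before Adm and Ankrd37 are shown because they were the hypoxia genes that passed. Capitals mark ACGTG or GCGTG on either strand, the core bound by hypoxia-inducible factors.
Adm, chr7:110226608-110226857, plus strand: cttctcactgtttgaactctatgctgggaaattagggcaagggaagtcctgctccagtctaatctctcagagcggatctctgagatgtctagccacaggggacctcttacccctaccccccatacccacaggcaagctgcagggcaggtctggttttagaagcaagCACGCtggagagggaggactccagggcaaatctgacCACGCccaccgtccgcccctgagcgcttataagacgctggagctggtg
Ankrd37, chr8:46452906-46453155, minus strand: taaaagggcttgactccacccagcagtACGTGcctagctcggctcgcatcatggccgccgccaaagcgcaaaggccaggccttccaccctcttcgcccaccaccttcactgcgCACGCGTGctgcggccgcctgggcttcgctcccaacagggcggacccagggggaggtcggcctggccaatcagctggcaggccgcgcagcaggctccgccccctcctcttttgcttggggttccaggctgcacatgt
Adm held 2 matches and Ankrd37 held 3, of which 2 overlap. The core is short and was present in 43.7% of the 23026 windows and in 15 of the 36 windows of the genes called higher.

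The immunoglobulin segments Ighv1-82 and Igkv6-32 were called higher, but 1 SS library carried both. SS mouse 9824 held 0.831 CPM of Ighv1-82 and 2.73 CPM of Igkv6-32, and no other control library exceeded 0.0418 CPM of either. Such segments have near-identical copies, among which reads cannot always be placed, and a fold on them describes this mouse. Of 24 MHC and lymphoid genes none passed the test. Of these, 23 had positive log2 fold changes, and the median was 0.83, or 0.63 without SS mouse 5349. The list's level ran from 0.42 to 1.40 in SS libraries. In AA libraries it ran from -0.60 to 0.57, with 5844 the highest and the next at 0.36. Of the SS libraries, 5 were above every AA library. Ccr7, a chemokine receptor of lymphocytes and dendritic cells, had log2 fold change 1.58 ± 0.61 (adjusted p = 0.954). Foxf1, a transcription factor of vessel-associated cells, had 0.63 ± 0.21 (adjusted p = 0.587), with all 7 SS libraries above all AA libraries. Of 12 neutrophil genes, 8 were high enough to be tested with all libraries and 6 without SS mouse 5349, and none passed. With all libraries 7 of the 8 were positive, with a median of 1.95. Without 5349, 5 of the 6 were positive, with a median of 1.08. The set of genes tested thus depended on this library, so these shares are a description. The levels were low, with a median of 3.39 CPM in SS and 2.08 CPM in AA libraries summed over the list.

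No gene was called among 14 homeostatic microglia genes (median log2 fold change 0.02, and -0.03 without SS 5349), 23 reactive microglia and macrophage genes (0.20, and -0.03 without SS 5349) or 12 complement genes (0.05, and -0.04 without it). Cx3cr1, P2ry12 and Tmem119, receptors and a surface protein of microglia, had log2 fold changes of 0.04, 0.08 and -0.07. Of 17 astrocyte genes none was called, and Gfap, the astrocyte filament protein, was at -0.22. Osmr, the oncostatin M receptor, was called without 5844 only (0.57, adjusted p = 0.0182, edgeR). The library of 5844 held 10.99 CPM of Osmr, above every SS library, the highest of which was at 9.60 CPM. Of 20 genes of heme and iron handling none was called, with a median of 0.00, and Hmox1, the inducible heme oxygenase, was at -0.10. None of 14 NRF2 targets was called, and their median was -0.01.

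Of 16 neuron genes 2 had positive log2 fold changes, and the median was -0.11. Gad2 and Slc32a1, a GABA-making enzyme and the vesicle transporter of GABA, had the lowest p of the list, at -0.33 ± 0.09 and -0.35 ± 0.11 on the log2 scale (adjusted p = 0.136 and 0.523). Of 16 oligodendrocyte and myelin genes 3 were positive and the median was -0.14, or -0.28 without SS mouse 5349. None was called. Lists of immediate early genes, glucocorticoid targets, neurogenesis, sphingolipid metabolism and hippocampal subfields held no called gene, with medians between -0.09 and -0.01; Acer2, described above, is a sphingolipid enzyme outside that list. The 18 subfield genes, such as Prox1 of the dentate gyrus, were all high enough to be tested.

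Markers of neighbouring tissue varied between mice. The choroid plexus list had a median log2 fold change of -1.05, or -2.36 without SS mouse 5349, with 0 of 16 positive. Its level ran from -2.33 to 2.34 in SS and from -2.10 to 3.44 in AA libraries. Without SS mouse 5349 the highest SS level was 0.11, so the overlap of the groups above that level rests on this mouse. The 15 meningeal fibroblast genes had a median of 0.41 and a level from -0.99 to 1.54 in SS and from -0.66 to 0.46 in AA libraries. The median of the striatal and thalamic markers was -0.19 and that of the cortical layer markers -0.09. No gene of these lists was called, and their part in the vessel genes was not tested.

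**Figure D5:**
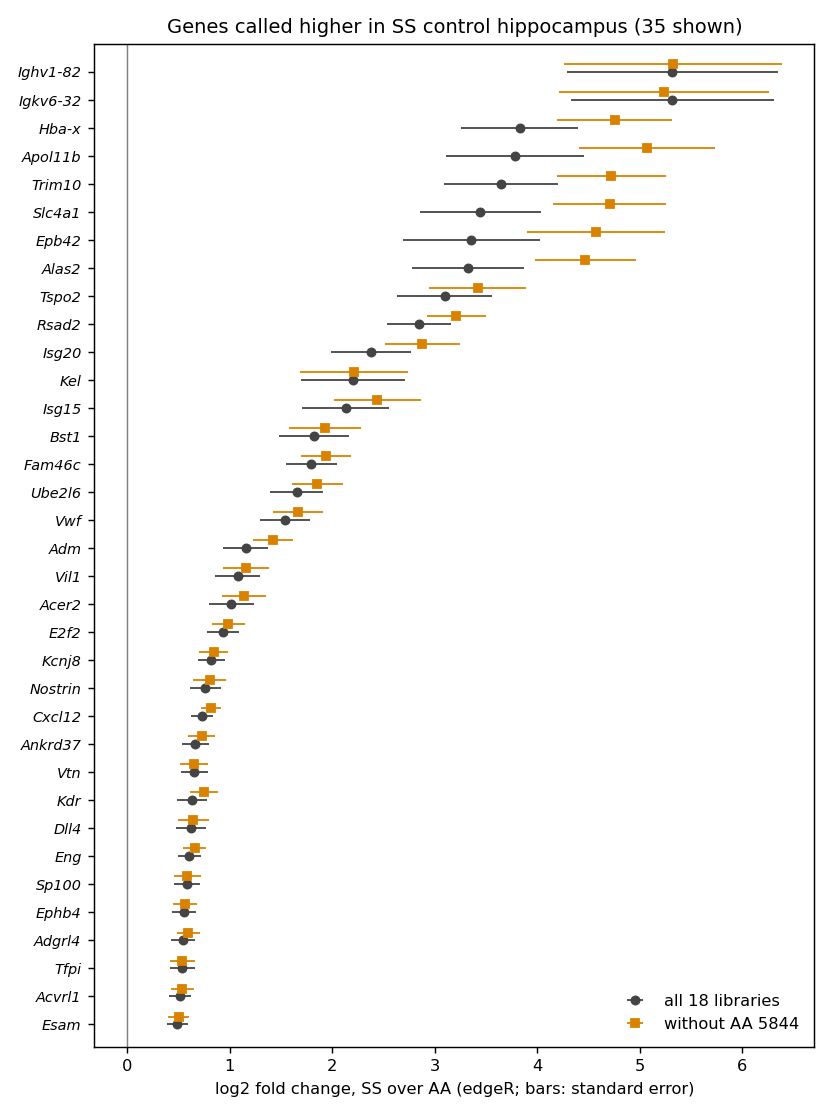
Log2 fold change of SS over AA with its standard error for 35 of the 36 genes called higher in the control hippocampus, with all 18 libraries (circles) and without AA 5844 (squares). Without 5844 Alas2 moves from 3.33 to 4.47 and Slc4a1 from 3.44 to 4.70, while Kel (2.20 and 2.21), Kcnj8 (0.82 and 0.84) and Esam (0.49 and 0.51) hardly move.

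The mouse numbers fall into series, and both genotypes are in each of those that hold control mice. Series A has 2 SS and 3 AA mice, and series B has 5 SS and 8 AA mice. The paper describes 2 cohorts, the second of them given minocycline or plain water. No library of series A had minocycline, and all libraries of RSD without minocycline are in series A. The labels do not tie a series to a cohort, and whether a series was a batch is not given in the sources used here. Alas2 differed by 4.27 on the log2 scale in series A and by 2.98 in series B, which holds 5844, and by 4.63 in series B without it. Vwf differed by 1.87 and 1.40, Cxcl12 by 0.78 and 0.70, and Kcnj8 by 0.78 and 0.83. Within series A 30 genes were called, 20 higher and 10 lower, of which 5 were among the 37, and within series B none was called by edgeR, with 1036 genes at an unadjusted p under 0.05; without 5844, 29 genes were called in series B. With the series as a term in the model 40 genes were called.

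The cortex of the same 18 mice was used to ask whether the difference was larger in the hippocampus. For all 36 genes the mean log2 CPM was higher in SS cortex too, as it was for 46.6% of all genes tested; these are the mice in which the genes were called, 5844 included. Alas2 differed by 4.06 in the cortex and 4.25 in the hippocampus as a difference of mean log2 CPM, Rsad2 by 2.77 and 2.94, Vwf by 1.63 and 1.52, and Kcnj8 by 0.73 and 0.86. With each mouse as a block, 0 of 19196 genes differed between the tissues by edgeR, and DESeq2 called 3. By edgeR 797 genes had an unadjusted p under 0.05, where chance alone would give 960. For Alas2 the difference between the tissues was 0.18 on the log2 scale, and for Vwf it was -0.12 (adjusted p = 1.00 for each).

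Mice given both RSD and minocycline provided other animals with the same genotypes, 14 SS and 18 AA hippocampi. Their levels are set beside those of the controls as a description, without a test, and these mice differ from the controls in stress and drug. Of the 36 genes, 34 had a higher mean log2 CPM in SS, where 50.4% of all genes tested did. Here too Alas2 went against a few labels: the library labelled SS 7078 was at 1.79 log2 CPM, where the other SS libraries started at 5.23, and the library labelled AA 5853 was at 5.45, where the other AA libraries ended at 3.69. Alas2 was higher by 3.48, Rsad2 by 2.48, Vwf by 1.16 and Adm by 1.39 log2 CPM. The vessel genes Kcnj8 and Eng were higher by 0.42 and 0.40, and Vtn, Dll4 and Tfpi by 0.06, 0.09 and -0.00, where the control mice had differences of 0.62, 0.63 and 0.51 log2 CPM.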

How the data were processed

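RNA of the hippocampus and cortex of male Townes mice was sequenced from polyadenylated, strand-specific libraries. The authors aligned single reads to GRCm39 with STAR and deposited, per tissue, a table of raw counts per GENCODE gene (55416 genes, 5111 without a symbol), with neither normalization nor pooling; the annotation release, the STAR version and the strand setting are not given in the sources used here. Summary lines that name no gene, among them reads outside genes (4.25% to 10.7% of a control hippocampus library), were left out of all fits. STAR counts no read with several mapping places, so near-identical genes are uncertain. In the tables, 3 columns match no library with a known group and were not used.

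Counts were tested in R 4.3.3 with edgeR 4.0.16 (glmQLFit and glmQLFTest). All hippocampus groups were in 1 model and shared the estimate of the spread; a few libraries with counts identical to a library of another label were left out. Genes passed filterByExpr by group (minimum count 10, total 15). The smallest group held 1 library, so a gene could be tested through 1 library alone. With control libraries only, 18668 genes were tested. Libraries were scaled by TMM, and a call needed a p under 0.05 after Benjamini-Hochberg adjustment over all genes tested. Log2 CPM used a prior count of 2. Mice are the replicates. For the comparison of tissues the hippocampus and cortex of each mouse were paired by mouse number in the labels, as a block. Positions, overlaps and the 250-base windows come from GENCODE vM39 on GRCm39, which held 54749 of the gene IDs. Alternatives were DESeq2 1.42.0, RLE size factors, no filter, the number series or the outside-gene share as a term, fewer libraries and leaving out each library.

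The members, lists and rules were chosen with earlier results of these data known. Named genes are the called genes of largest change at mean log2 CPM of at least 0, called list members or the 2 of lowest p in lists with none, label checks, and Ccr7 and Foxf1; other called genes are named because they are few. A few genes are not reported here. Both tests were first tested on simulated data, with 100 genes changed by 1 and 100 by 2 on the log2 scale. The genotype test with edgeR recovered 53% and 78% of these and also called 14 unchanged genes. The test between tissues with edgeR recovered 75.8% and 94% and also called 5 unchanged genes.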

Additional observations from a re-analysis of the deposited data

Results flagged for a closer look

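Among 93 genes looked at in the 7 SS libraries, 10 had a library whose gap to its neighbour exceeded 0.568 of the group's range, where chance flags about 1 in 20. SS mouse 5349 was the highest for Adora2a at 1.57 log2 CPM, Ephb4 at 3.80, Mki67 at 0.94, Podxl at 6.10 and Prlr at 3.82, and the lowest for Sgk1 at 5.95. SS mouse 9824 was the highest for Ighv1-82 at -0.18 log2 CPM, where the other 6 SS libraries were at most -3.89, and for Igkv6-32 at 1.47. SS mouse 5785 was the lowest for Rsad2 at 2.39 log2 CPM, where the other SS libraries started at 3.49, and for Slc4a1 at 1.61, where they started at 3.03. This mouse also had the lowest Alas2 of the SS group, at 44.05 CPM, and it stayed above the 10 AA libraries other than 5844 for Alas2, Rsad2 and Slc4a1. For 5 of these genes, Adora2a, Mki67, Podxl, Prlr and Sgk1, the difference between SS and AA mice was not called with all libraries.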

How the results depend on the processing

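The count of 37 genes in SS against AA mice ranged from 25 (without SS 5349) to 52 (without AA 5844) when 1 library was left out. It was 37 with RLE size factors, 36 with no filter, 25 with control libraries alone, 40 with the number series as a term, 45 with the outside-gene share as a term, 47 without AA 5844 and 9631, 35 with identical libraries kept and 46 with DESeq2. It was 0 in number series B alone, 68 without 5844 and with the series as a term, and 58 without 5844 by DESeq2. The setting without SS 5349 and AA 5844, chosen after seeing the data, gave 33. Hbb-bs turned from -5.88 to 0.23 without 5844 by DESeq2; the cause was not tested. For the genes named, 2403 values kept their direction and their side of the threshold, 57 newly passed it and 106 no longer passed it.

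Between the tissues, the fit with the mouse as a replicate block called 0 genes and the fit without pairing called 0. They had 797 and 228 genes of unadjusted p under 0.05, where chance alone would give 960 in each. DESeq2 called 3 and the fit with no filter 108; the cause was not tested. Depth limits genes such as Kel and Rhag, which are under 1 CPM in most libraries.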
